A study of Mus musculus with 4 samples.

Results

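The genes described here encode the proteins of the cytosolic ribosome. They were chosen by symbol, as every gene of the array's annotation named Rpl or Rps with a number, or Rplp0, Rplp1, Rplp2 or Rpsa, without the Rps6k kinases, and the brightest probe set of a gene stood for it. The rule found 49 of the 12393 genes with a probe set of their own. Of these, 42 were standard ribosomal proteins and 7 were variant genes or a pseudogene, which were set apart. A mean scaled signal of at least 100 was reached by 40 of the 42 standard genes, 20 of the small and 20 of the large subunit, and by 8036 of all 12393 genes. Rpl12 and Rpl14, both of the large subunit, stayed under it with mean signals of 89.8 and 62.6. A further 102 probe sets list a ribosomal protein gene together with other genes or pseudogenes, so they name no gene and are described only as a group.

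The RNA came from the intestinal mucosa of male mice, 10 weeks old, of the inbred strains A/J, known to resist diet-induced obesity, and C57BL/6J, known to be prone to it. For 2 weeks they ate either low-fat or high-fat food, which gives 4 groups of 6 mice, with no other treatment or allele named. Each group is represented by a single Affymetrix mouse 430A array that received RNA pooled from 2 mice of average weight, so no group has a replicate. A signal is the hybridisation intensity of a probe set, scaled so that the trimmed mean of each array is 500, with values below 100 raised to that floor before log2 was taken.

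A ribosome is built from ribosomal RNA and a fixed set of proteins, in a small subunit that reads the mRNA and a large subunit that joins the amino acids. Many ribosomal protein mRNAs begin with a C and a run of pyrimidines, the terminal oligopyrimidine tract, through which mTOR signalling controls their translation. In the intestine, ribosome production is known to be high in the dividing cells of the crypts.

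The first bases of the transcripts are shown for 6 members with large or contrasting values, because the tract lies there. Each window holds 10 bases before the RefSeq start site and 20 after it on the transcript's strand (RefSeq, GRCm38.p6), and capitals mark a C followed by at least 4 bases that are C or T and beginning within 3 bases of the start. Rps25 and Rps19 also had large low-fat strain ratios, and their windows, not shown, hold no such run. The windows of Rps24, Rps6 and Rps9 (chr14:24490668-24490697, plus strand; chr4:86857348-86857377, minus strand; chr7:3704031-3704060, plus strand) hold such a run, and those of Rpl37a, Rps15 and Rpl27 (chr1:72711250-72711279, chr10:80292421-80292450 and chr11:101442235-101442264, all plus strand) hold none at that place.
Rps24: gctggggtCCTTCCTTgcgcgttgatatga
Rps6: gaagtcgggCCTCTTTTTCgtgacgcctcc
Rps9: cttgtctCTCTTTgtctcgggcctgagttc
Rpl37a: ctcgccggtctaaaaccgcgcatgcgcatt
Rps15: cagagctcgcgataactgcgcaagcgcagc
Rpl27: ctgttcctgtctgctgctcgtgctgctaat

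A run at the start was present at 12 of 41 start sites of the 35 standard genes in the table, or 29.3%, against 11.5% of all 32851 start sites and 12% of the 75 start sites of mitochondrial ribosomal protein genes. Within 25 bases of the start, a run was present at 78.0% of these sites and at 55.6% of all sites. The 12 genes with a run at the start had a median A/J over C57BL/6J log2 ratio of -0.44 on low-fat, and the 23 without had one of -0.38. A match is only a match of letters in this window, and RefSeq starts can lie off the start that the tissue uses.

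All 12 of the enterocyte markers on the array had a signal of at least 100 on every array, and their summed signal lay between 195430 and 209822, so the defining markers of the labelled mucosa were present. Signals of the 15 exocrine pancreas markers summed to 111520 (low-fat) and 3120.0 (high-fat) in A/J and to 113657 and 182649 in C57BL/6J, and 7 of 15 reached 100 on the A/J high-fat array. For 18S ribosomal RNA, the 5' probe set had scaled signals of 218 (low-fat) and 84.4 (high-fat) in A/J and of 11010 and 1675 in C57BL/6J. The ratio of 3' to 5' signal was between 0.942 and 1.01 for Actb and between 0.783 and 0.825 for Gapdh. Where 4 signals are given below, the first pair is A/J and the second pair C57BL/6J, each with low-fat before high-fat. In pooled tissue RNA, fewer cells of a type and less RNA per cell cannot be told apart.

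The first question was whether the strains differed on the low-fat diet. Ribosomal protein signals were lower in A/J in 37 of 40 genes, where 47.7% of all measured genes were lower. The median log2 ratio was -0.43, against 0.02 over all measured genes and -0.09 over 366 bright genes. Bright genes are the other genes whose mean signal reached the lower quartile of the members, 4899. All 3 exceptions, Rps9, Rpl39 and Rpl27a, were at most 1.13-fold higher in A/J. At least a 1.5-fold lower signal in A/J was seen for 9 of the 40, where 9.23% of all measured genes were as low, and none was 1.5-fold higher, where 10.9% of all measured genes were. Without scaling between arrays the median was -0.25, that of all measured genes 0.20, and 4 members were 1.5-fold lower, while scaling on the median signal gave 14. With 1 array a group these ratios have no replicate check and no test. Of all gene probe set signal, the members' sum made up 1.56% and 1.80% in A/J and 2.01% and 1.87% in C57BL/6J, low-fat before high-fat.

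**Figure D1:**
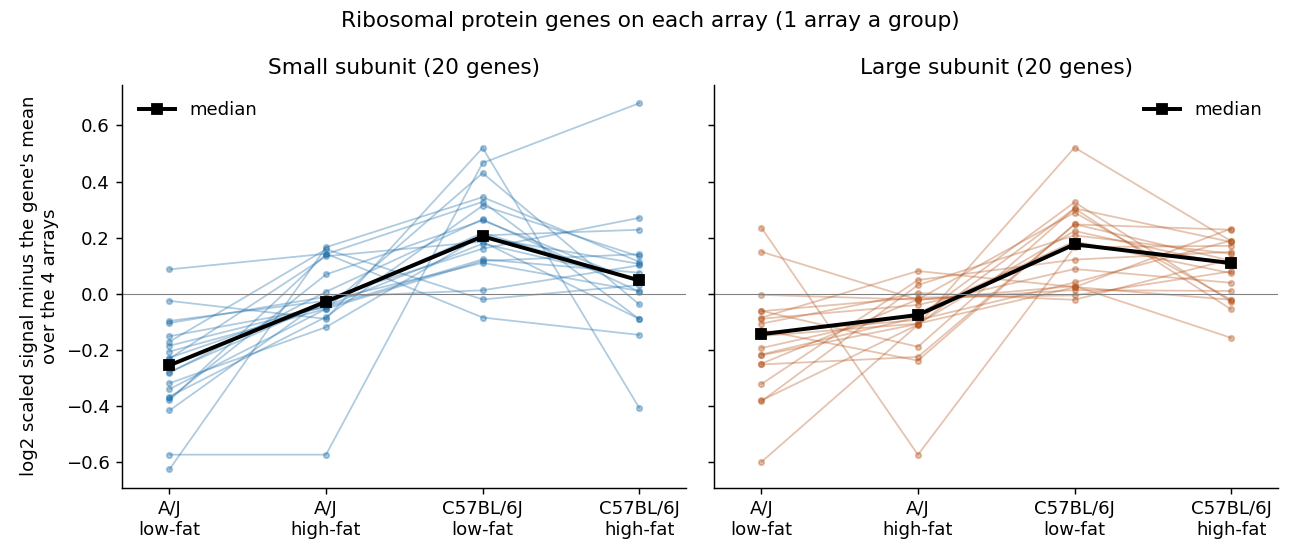
Log2 scaled signal of each measured ribosomal protein gene minus its mean over the 4 arrays (y axis, log2 units), for the small (left) and large (right) subunit, with 1 line a gene and black squares for the median. The A/J low-fat array was the lowest for 32 of the 40 genes, and the C57BL/6J low-fat array was the highest for 25. These counts were made for the members only and not over all measured genes, so they have no background share to be read against.

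Among small subunit proteins on low-fat, the median log2 ratio was -0.50 and 19 of 20 were lower in A/J. Rps24, needed for processing of the small subunit's RNA, had signals of 5897 and 10202 in A/J and 11544 and 9841 in C57BL/6J. Only the A/J low-fat array was low, 1.96-fold below its C57BL/6J counterpart. Rps15, which is required for export of the small subunit from the nucleus, had signals of 4467, 5446, 7615 and 5505 in this order of arrays. Here the C57BL/6J low-fat array stood above the rest, and A/J was 1.70-fold lower on low-fat and 1.01-fold lower on high-fat. Rps25, a protein known for its part in internal initiation, gave dim signals of 179, 257, 292 and 219, with A/J 1.63-fold lower on low-fat and 1.17-fold higher on high-fat.

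Rps19, the protein most often mutated in Diamond-Blackfan anaemia, had signals of 2678 and 3259 in A/J and 4289 and 3783 in C57BL/6J. Both A/J arrays lay below both C57BL/6J arrays, by 1.60-fold on low-fat and 1.16-fold on high-fat. Rps20, in the head of the small subunit, was 1.55-fold lower in A/J on low-fat, with signals of 3060.3, 4155, 4748 and 4076. Its A/J high-fat signal lay between those of the C57BL/6J arrays. Rpsa, also known as the laminin receptor precursor, had signals of 5573, 6614, 7769 and 7275, and both A/J arrays were the lower.

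Rps6, the substrate of the S6 kinases that gave them their name, was measured by a dim probe set with signals of 87.8 and 96.4 in A/J, both under the floor, and of 205 and 238 in C57BL/6J. Its A/J signal was at least 2.05-fold lower on low-fat and at least 2.38-fold lower on high-fat. A second Rps6 probe set stayed under the floor on every array, at 51.4 and 12.1 in A/J and 6.77 and 66.5 in C57BL/6J, so it gives no ratio. Rps9, which sits near the mRNA entry of the small subunit, went the other way in its brightest probe set, with signals of 5499, 5716, 4883 and 4678. Its A/J arrays were the higher, by 1.13-fold on low-fat and 1.22-fold on high-fat.

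In the large subunit the low-fat median was -0.37, and 18 of 20 genes were lower in A/J. Rpl37a, a zinc-binding protein, had signals of 6372 and 8938 in A/J and 13845 and 10989.7 in C57BL/6J. Its A/J arrays were the lowest, by 2.17-fold on low-fat and 1.23-fold on high-fat. Rpl27 had signals of 4399.7, 5305, 7068 and 6505 and was 1.61-fold lower in A/J on low-fat. Rpl6 had signals of 4925, 6563, 7418 and 7089, a 1.51-fold lower A/J signal on low-fat. For both genes the A/J low-fat array was the lowest, and both A/J arrays lay below both C57BL/6J arrays.

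Rpl13a, known for a second role in silencing inflammatory mRNAs, had signals of 5274 and 5374 in A/J and of 7452 and 7354 in C57BL/6J, on low-fat and high-fat. In this brightest probe set the strains stood 1.41-fold and 1.37-fold apart, and diet made almost no difference within a strain. The second probe set, nearly as bright, gave 4022 and 5651 in A/J and 7087 and 6747 in C57BL/6J. The dimmer probe sets had A/J diet log2 ratios of 0.31 and 0.27, and C57BL/6J diet log2 ratios of 0.01 and 0.55. All were lower in A/J on both diets. Rpl22, whose loss is known to impair T cell development, had signals of 1536, 1424, 1995 and 1823, with A/J 1.30-fold and 1.28-fold lower. Rpl11, which joins the 5S particle and binds Mdm2, had signals of 5159, 4722, 6641 and 5178, so that C57BL/6J low-fat alone was high. The proteins of the stalk that recruits elongation factors differed in pattern: Rplp0 had signals of 8112, 8364, 9177 and 10178, and Rplp2 of 10117, 11858, 14693 and 11842. Rpl8 and Rpl10a were among the least different members, with A/J 1.01-fold and 1.04-fold lower on low-fat, and Rpl39, of the exit tunnel, was 1.09-fold higher.

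On the high-fat diet the strain difference of these genes was smaller. The median log2 ratio was -0.11, beside 0.04 over all measured genes. Lower in A/J were 30 of 40 genes, where 44.9% of all measured genes were. Without scaling between arrays, the median was 0.18 and 9 genes were lower, so the direction on high-fat depends on the scaling. At least 1.5-fold lower in A/J were 2 of 40, Rps6 and Rpl27a, where 6.88% of all measured genes were, and none was 1.5-fold higher, where 8.37% were. Without scaling, 1 was lower and 1 higher at that fold. Rpl27a, another dim member, had signals of 250.4 and 143 in A/J and 239 and 239 in C57BL/6J, so that the A/J high-fat array alone was low. Rps7, which also binds Mdm2, had signals of 7400.2, 8499.8, 10659 and 10809.6 and was 1.27-fold lower in A/J on high-fat. Rps27, Rps25, Rps18 and Rpl39 were higher in A/J on high-fat, by 1.25-fold, 1.17-fold, 1.17-fold and 1.10-fold. The exocrine pancreas markers summed to 3120.0 on the A/J and 182649 on the C57BL/6J array of this comparison. Gastric surface markers summed to 1427 and 8423 there. The part of these signals was not tested.

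**Figure D2:**
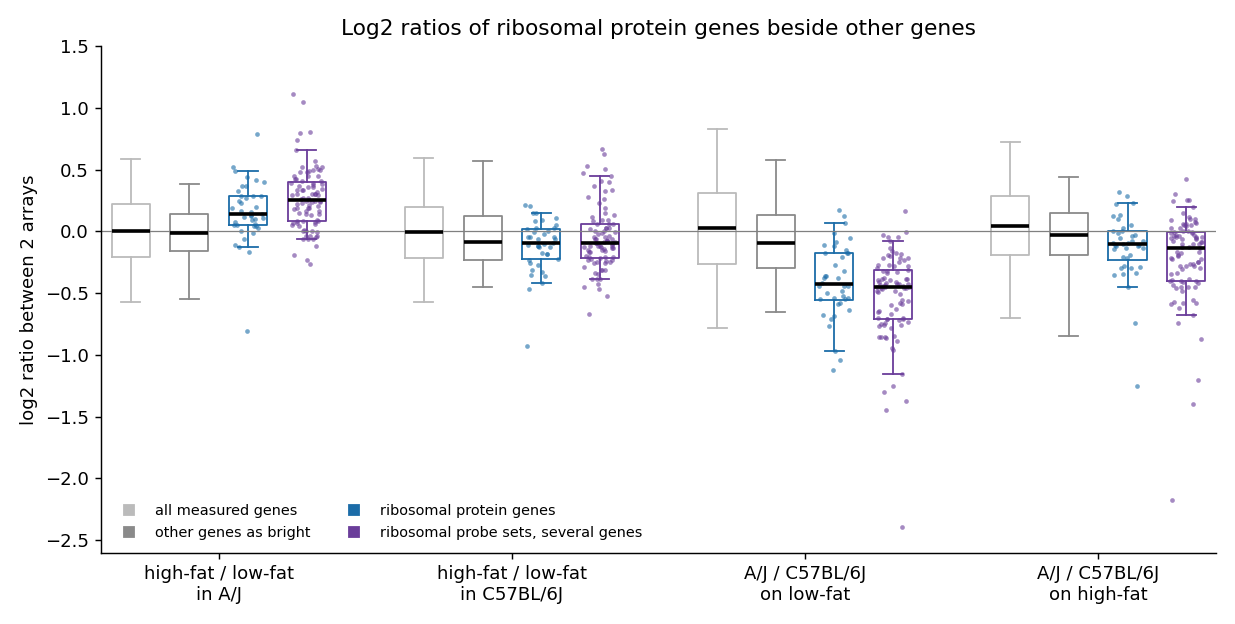
Log2 ratios of the 4 comparisons of 2 arrays (y axis) for all 8036 measured genes, 366 other bright genes (mean signal of at least 4899), 40 ribosomal protein genes and 90 ribosomal probe sets with several genes; boxes span the quartiles with the median in black, whiskers run from the 5th to the 95th percentile, and points are single genes or probe sets. The medians of the ribosomal protein genes were 0.14, -0.10, -0.43 and -0.11 from left to right.

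Both A/J signals lay below both C57BL/6J signals for 28 of 40 genes, where this held for 21.9% of all measured genes, and above both for Rps9 alone, where it held for 27.2%. The limma fit over the 4 arrays had terms for strain and diet and 1 residual degree of freedom. Its strain effect (A/J minus C57BL/6J) was negative for 38 of 40 genes, where 3677 of all 8036 measured genes were negative. The members' median was -0.26, against 0.04 over all measured genes. Without scaling between arrays the members' median was -0.03. Rps6 alone passed an adjusted p of 0.05, where 3.68% of all measured genes were lower in A/J and 3.83% higher. Its effect was -1.14 or lower (SE 0.197, adjusted p = 0.00349 by limma), a bound, since its A/J signals were set to the floor. With a floor of 200 its effect was -0.14 and the call was lost (adjusted p = 0.676 by limma). Leaving out any 1 array, in a fit of strain alone, also ended the call (adjusted p from 0.314 to 0.408 by limma), and 0 of all measured genes were then called.

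At an unadjusted p under 0.05, 5 members were lower in A/J (Rps6, Rpl37a, Rpl13a, Rpl27 and Rps7) and 0 higher, beside 9.36% and 12.2% of all measured genes. Rpl37a had an effect of -0.71 (SE 0.227, adjusted p = 0.0841 by limma), and Rpl13a one of -0.48 (SE 0.194, adjusted p = 0.177 by limma). The error of this fit is the strain-by-diet difference of these 4 pools, and its p-values do not measure the spread between pools of a group. Standard errors of single members ran from 0.194 to 0.244 on the log2 scale.

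Other signals also differed between these arrays, not all in the same order. T cell markers, 8 of 11 with a mean of at least 100, summed to 3175 and 4411 in A/J and 13121 and 7297 in C57BL/6J, with Cd2, Cd5 and Cd8b1 under 100, and had a median low-fat strain log2 ratio of -1.18. On high-fat the strain median of these markers was 0.09, with 5 higher in A/J and 3 lower. Gzma, a large part of the sums, had signals of 810, 907, 5190 and 3352. The diet medians of the list were 0.39 in A/J and -0.91 in C57BL/6J. Paneth cell markers, all 4 of those on the array measured, summed to 18430 and 16963 in A/J and 23632 and 19681 in C57BL/6J, with median log2 ratios of -0.83 for strain on low-fat, -0.20 for strain on high-fat, 0.31 for diet in A/J and -0.32 for diet in C57BL/6J. Proliferation markers, 20 of 21 measured and only Tyms under 100, summed to 9802, 11539, 12004.5 and 12359.7. Their median log2 ratios were -0.30 for strain on low-fat, -0.08 for strain on high-fat, 0.31 for diet in A/J and 0.07 for diet in C57BL/6J. The 18S signal was highest on C57BL/6J low-fat, as given above, and the 3' probe set of the spiked cre control had scaled signals of 12094, 11988, 19458 and 21250.2. The part of each in the ribosomal protein values was not tested.

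The second question was what the high-fat diet did in each strain. In A/J, ribosomal protein signals were higher on high-fat in 33 of 40 genes and lower in 6, where 50.9% of all measured genes were higher. The median log2 ratio was 0.14, against 0.01 over all measured genes. The small subunit had the larger median, 0.22 against 0.08 for the large subunit, a difference that was not tested. Rps24 was 1.73-fold higher on high-fat, the only member at 1.5-fold or more, where 4.99% of all measured genes were that much higher. Rps25, Rpl37a, Rps20 and Rpl6 followed, 1.43-fold, 1.40-fold, 1.36-fold and 1.33-fold higher. The second probe set of Rps20 had a log2 ratio of -0.10 instead, and that of Rpl37a had 0.29. Rpl27a was 1.75-fold lower, the only member at that level, where 4.7% of all measured genes were. Rpl39, Rpl11, Rpl22 and Rps27 were 1.13-fold, 1.09-fold, 1.08-fold and 1.05-fold lower on high-fat. The exocrine pancreas markers summed to 111520 on the low-fat and 3120.0 on the high-fat array of this comparison, and their part was not tested.

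In C57BL/6J, ribosomal protein signals were lower on high-fat in 28 of 40 genes and higher in 12. Of all measured genes 50.9% were lower, and of the 366 bright genes 58.2%. The members' median log2 ratio was -0.10. Over all measured genes the median was -0.01, and over the 366 bright genes -0.09, as low as that of the members. Without scaling between arrays the members' median was -0.25, with 37 of 40 lower, and that of all measured genes was -0.15. Rps27, a zinc-finger protein of the small subunit, was the only member 1.5-fold or more lower, where 4.63% of all measured genes were, and 0 were that much higher, where 5.13% were. Its signals were 240.3 and 229.8 in A/J and 351 and 185 in C57BL/6J. The C57BL/6J arrays were its highest and its lowest, 1.90-fold apart. Rps15, Rps25, Rpl11 and Rpl41, the smallest ribosomal protein, were 1.38-fold, 1.34-fold, 1.28-fold and 1.28-fold lower. Rpl37, Rps6, Rplp0, Rpl7 and Rps14 were higher by 1.16-fold, 1.16-fold, 1.11-fold, 1.11-fold and 1.08-fold. The 18S signal was lower on high-fat in this comparison, from 11010 to 1675. Gastric surface markers, 4 of 8 with a mean of at least 100, summed to 1539 on low-fat and 8423 on high-fat. T cell markers summed to 13121 and 7297. The part of each was not tested.

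The diet effect over both strains was small. In the limma fit, 28 of 40 members had a positive and 12 a negative diet effect, where 3967 of all 8036 measured genes had a positive one. The members' median was 0.05, or -0.05 without scaling between arrays. With 1 array left out, in a fit of diet alone, it ran from -0.17 without A/J low-fat to 0.22 without C57BL/6J low-fat. Such a fit cannot check the diet effect, since with an array missing and no strain term the strain difference enters it. At an adjusted p of 0.05, 0 members rose and 0 fell, where 0.423% of all measured genes rose and 0.187% fell. At an unadjusted p under 0.05 there were also 0 each way, where 4.87% and 4.48% of all measured genes passed. The lowest adjusted p was that of Rps27, 0.547 by limma, at an effect of -0.50.

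The diet ratios of the strains, which share no array, pointed apart for many members. Higher on high-fat in A/J and lower in C57BL/6J were 23 of 40 genes, where 23.7% of all measured genes were, and the reverse held for 1 gene. The ratio was above 0 in both strains for 10 genes and below 0 in both for 5. The difference of the log2 diet ratios, A/J minus C57BL/6J, had a median of 0.24 over the members and 0.02 over all measured genes. Mitochondrial ribosomal protein genes had the same median, 0.24, with 58 of 74 above 0, where 52.0% of all measured genes were. The median was 0.30 over proliferation markers, 0.17 over other terminal oligopyrimidine genes and -0.08 over enterocyte markers. Over the members the difference was at least 1.5-fold above 0 for 7 of 40 (8.79% of all measured genes) and below it for Rpl27a alone (8.89%). These 7 were Rps24 at 1.02, Rps25 at 0.94, Rps27 at 0.86, Rpl37a at 0.82, Rps15 at 0.75, Rps20 at 0.66 and Rps18 at 0.64, all but Rpl37a in the small subunit. These are values of the brightest probe sets, and those of Rps25 and Rps27 are dim, with mean signals of 237 and 251. The next probe sets of Rps24 gave 0.06, -0.04 and -0.44, that of Rps20 -0.07, and those of Rps18 0.40 and -0.09. Those of Rpl37a gave 0.61 and 0.56, and that of Rps15 0.61. A difference built from all 4 arrays has no error of its own and was not tested. For each gene it equals the low-fat strain log2 ratio minus the high-fat one, so it is not a separate result from those.

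**Figure D3:**
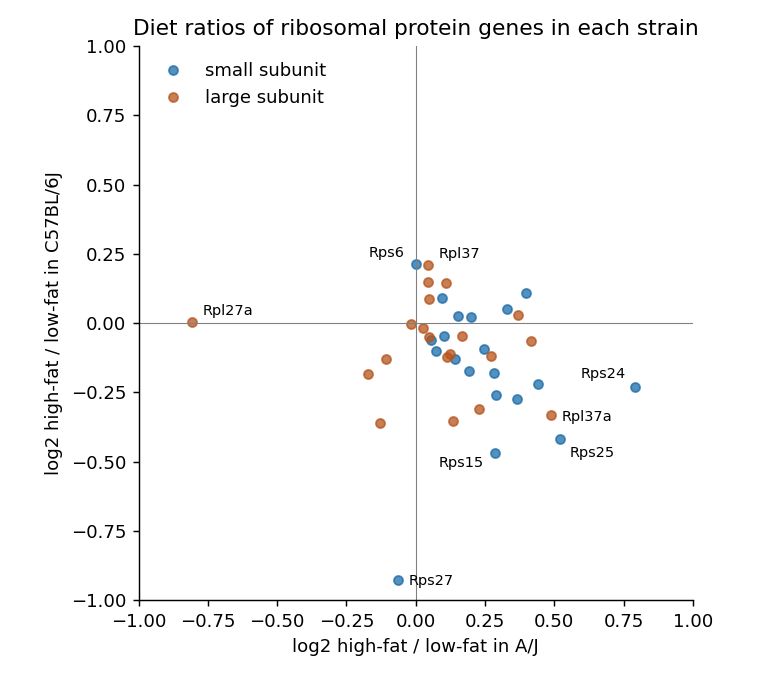
Log2 ratio of high-fat over low-fat signal in A/J (x axis) and in C57BL/6J (y axis) for each of the 40 measured ribosomal protein genes, coloured by subunit. The lower right part of the plot, higher in A/J and lower in C57BL/6J, holds 23 genes, and Rpl27a and Rps27 lie far from the others.

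Further probe sets of the same genes give the only repeat measure within an array. For 17 members, 34 more probe sets had a mean signal of at least 100. In the low-fat strain comparison 30 of the 34 were lower in A/J, with a median of -0.37. On high-fat in A/J, 19 were higher and 14 lower, with a median of 0.16, and in C57BL/6J 25 of 34 were lower, with a median of -0.19. The difference between probe sets of a gene had an SD of 0.46 and 0.22 for the diet ratios in A/J and C57BL/6J, and of 0.75 and 0.71 for the strain ratios on low-fat and high-fat. The median absolute difference was 0.22 and 0.12 for the diet ratios and 0.28 and 0.19 for the strain ratios.

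The higher Rps24 signal on high-fat in A/J was seen in its brightest probe set only. Its next probe sets read 3571 on low-fat and 3367 on high-fat, 2514 and 2305, and 1046 and 630, lower on high-fat in each case. The largest disagreement in this gene was 1.52 on the log2 scale. In the low-fat strain comparison all 4 of these probe sets were lower in A/J, by log2 ratios of -0.97, -0.33, -0.35 and -0.06. The second probe set of Rpl37a gave 6096 and 7459 in A/J and 10117 and 8118 in C57BL/6J, the same order as the brightest. The remaining, dim probe set of this gene gave 522, 480, 737 and 460, also lower in A/J on low-fat, but with log2 ratios of -0.12 for diet in A/J and 0.06 for strain on high-fat against 0.49 and -0.30 in the brightest. The second probe set of Rps15 gave 2497, 2994, 3863 and 3042, again the order of the brightest.

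Rps9 held the widest disagreement. Its second probe set had signals of 95.7 and 63.9 in A/J, both under the floor, against 1077 and 1054 in C57BL/6J. Its log2 strain ratios were -3.43 or lower on low-fat and -3.40 or lower on high-fat, while the brightest probe set was slightly higher in A/J. The log2 ratios of these probe sets differed by 3.60 on low-fat and 3.69 on high-fat. For Rpl41, probe sets differed by 1.12 in the A/J diet ratio and by 1.26 in the high-fat strain ratio, and for Rpl7 by 1.04 in the low-fat strain ratio.

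**Figure D4:**
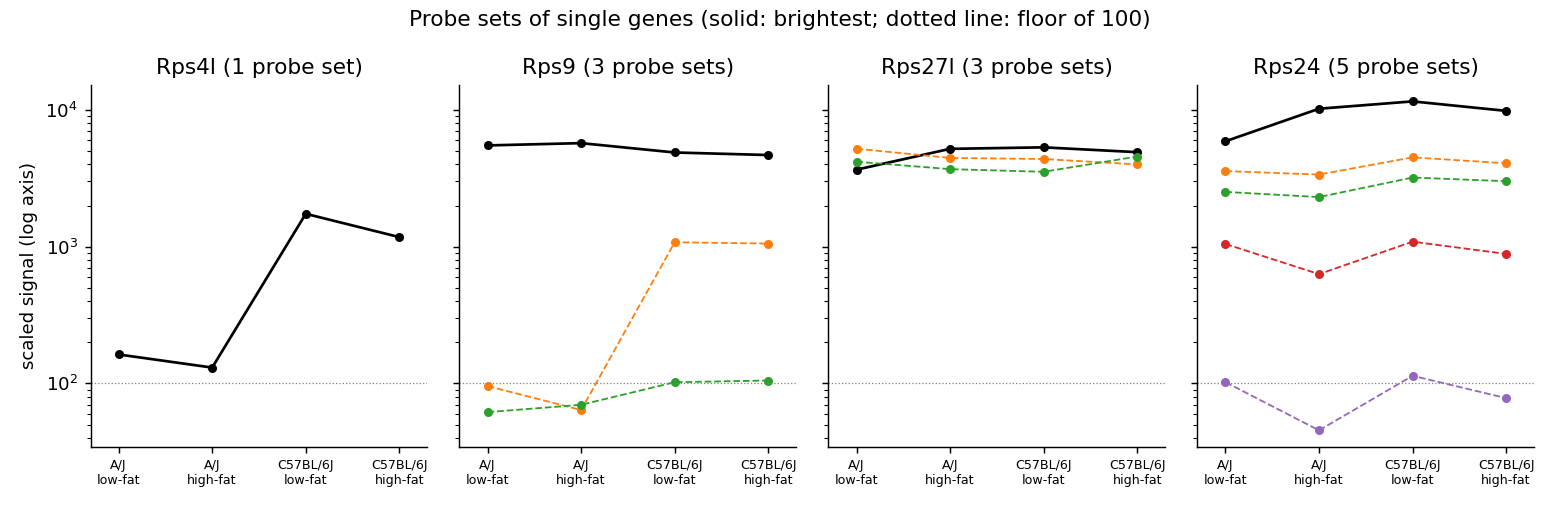
Scaled signals (log axis) on the 4 arrays of every single-gene probe set with a mean of at least 80 for Rps4l, Rps9, Rps27l and Rps24; the solid black line is the brightest probe set and the dotted line the floor of 100. Rps4l and the second probe set of Rps9 stand high on both C57BL/6J arrays, and the brightest probe set of Rps24 is low on A/J low-fat alone.

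Of the genes set apart, Rps4l differed most between the strains. It is a copy of the X-linked small subunit gene Rps4x. Its single probe set had signals of 163 and 131 in A/J and 1739 and 1175 in C57BL/6J. Both A/J arrays were far below both C57BL/6J arrays, by 10.7-fold on low-fat and 8.995-fold on high-fat. Probe sequences were not used here, so for this probe set and the second of Rps9, less RNA in A/J and weaker binding of its sequence to the probes cannot be told apart. The limma strain effect was -3.29 (SE 0.198, adjusted p = 2.16e-06), lower in A/J in both diets, and the diet effect of -0.44 did not pass (adjusted p = 0.51 by limma). With any 1 array left out, in a fit of strain alone, the effect lay between -3.58 and -3.01. Such a fit leaves 1 array in a strain, so it cannot check the call. Rps4x itself had signals of 6994, 7460.1, 7583 and 8064, within 1.08-fold between the strains.

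Rps27l, a copy of Rps27 known to be induced by p53, had signals of 3656 and 5192 in A/J and 5324 and 4909.6 in C57BL/6J in its brightest probe set. That probe set was 1.46-fold lower in A/J on low-fat, while its other probe sets, were higher there, at 5202 and 4181 in A/J against 4375 and 3528 in C57BL/6J on this diet. Rpl22l1, the copy that stands in for Rpl22, had signals of 1748, 2132, 2548 and 2387, lowest on A/J low-fat. Rpl7l1, a factor related to Rpl7, had signals of 406, 519, 442 and 461 and was highest on A/J high-fat. None of these 3 passed the limma test for strain or diet. Rpl39l, Rpl3l, which is a muscle form, and the pseudogene Rps15a-ps6 stayed far under the floor, with signals of at most 34.3.

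The ribosomal probe sets that list several genes were not used by the choice of members and share the arrays with it. Of 102, 90 had a mean signal of at least 100, and several can report on the same gene. On low-fat 89 of 90 were lower in A/J, where 47.7% of all measured genes were, and the median log2 ratio was -0.45. At least 1.5-fold lower were 33, where 9.23% of all measured genes were. On high-fat the median was -0.13, with 69 lower and 8 at least 1.5-fold lower, where 6.88% of all measured genes were. In A/J, 76 gave more signal on high-fat (median 0.25), and in C57BL/6J 60 were lower, with a median of -0.09.

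The other genes of ribosome production and translation were described from fixed lists. Of all 8036 measured genes, 3677 had a negative strain effect and 3967 a positive diet effect, the background for the counts below. Fau, a small subunit gene named otherwise, had signals of 11479, 13329, 14919.8 and 13436, lowest on A/J low-fat and highest on C57BL/6J low-fat. Of 74 mitochondrial ribosomal protein genes, 55 had a negative strain effect, with a median of -0.18, and 2 were lower in A/J by limma, a smaller share than the 3.68% of all measured genes. Mrpl55 had signals of 498 and 500.1 in A/J and 1046 and 1078 in C57BL/6J, with an effect of -1.09 (SE 0.194, adjusted p = 0.00441 by limma), and Mrpl27 had an effect of -0.80 (adjusted p = 0.0429 by limma). Of 54 ribosome biogenesis factors, 32 had a negative strain effect, with a median of -0.06, and 0 passed the test by limma, or 2 each way at an unadjusted p under 0.05. Of 12 genes of RNA polymerase I, 7 were negative, and 0 passed, adjusted or not.

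Of 11 elongation and termination factors, 10 had a negative strain effect, with a median of -0.15. The 1 that was lower in A/J by limma was Eef1e1, known as a scaffold of tRNA synthetases rather than an elongation factor, with signals of 275, 429.98, 497 and 639 and an effect of -0.71 (SE 0.199, adjusted p = 0.0488), where 3.68% of all measured genes were called lower. Of 30 initiation factors, 20 were negative, with a median of -0.10, and of 24 other genes with terminal oligopyrimidine mRNAs, 18 were negative, with a median of -0.10; 0 passed in either list by limma, and at an unadjusted p under 0.05 1 initiation factor was higher in A/J. For diet, all 11 elongation and termination factors had a positive effect, with a median of 0.19, as did 37 of 54 biogenesis factors, with a median of 0.14, and 21 of 24 other terminal oligopyrimidine genes, with a median of 0.11. By limma 0 genes of these 3 lists passed the diet test, and at an unadjusted p under 0.05 1, 3 and 0 rose and 0 fell.

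**Figure D5:**
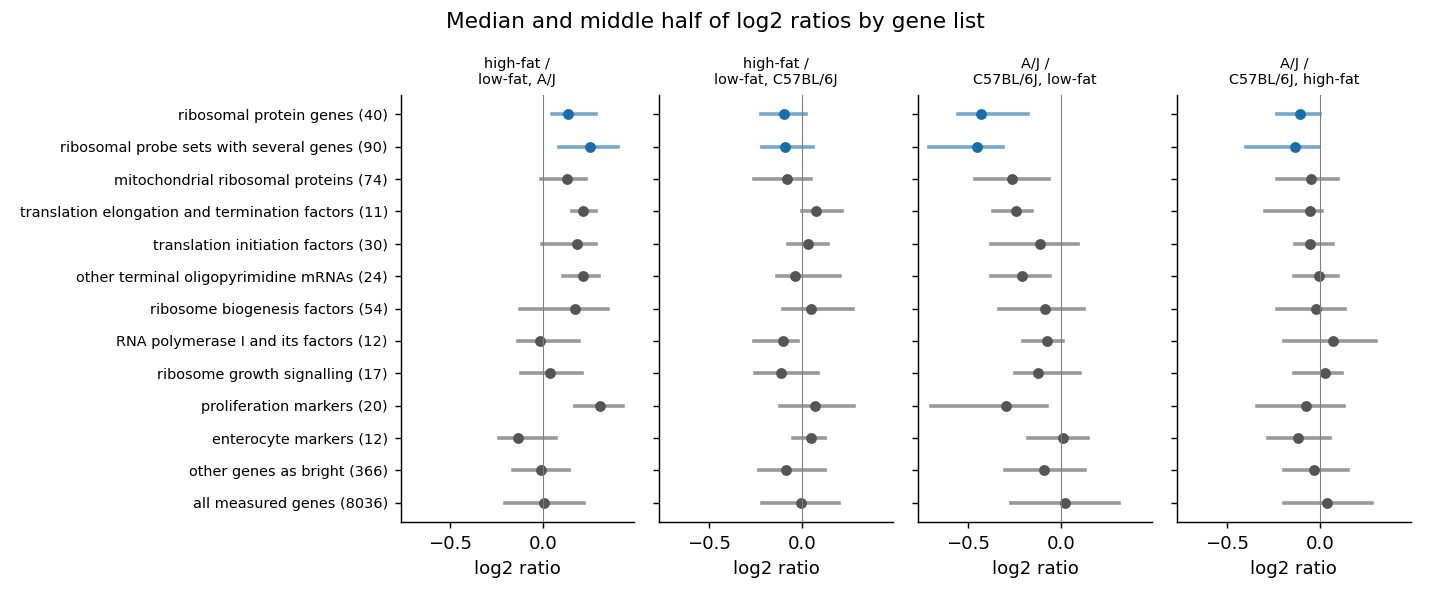
Median (point) and quartile range (bar) of the log2 ratio in each comparison of 2 arrays (x axis) for each gene list, with the number of measured genes in brackets. Among the lists plotted, on low-fat the ribosomal protein genes and the ribosomal probe sets with several genes have the lowest medians, at -0.43 and -0.45. The proliferation markers have one of -0.30 and the mitochondrial ribosomal proteins one of -0.27. T cell and Paneth cell markers, which are not plotted, had lower medians of -1.18 and -0.83.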

How the data were processed

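Per the labels' protocols, total RNA of each pool was made into biotinylated cRNA and hybridised to 1 array, and the authors computed an intensity for every probe set with Microarray Suite 5.0 at default settings. The deposited values are this intensity on a linear scale, and no label gives a shared scaling target. Of 22690 probe sets, 64 controls were left out of gene values, and 20380 with 1 gene in the platform annotation were used. The annotation lists 691 with several genes and 1555 with none. All 49 genes found by the rule were matched to the RefSeq table, with the same symbols.

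Scaling factors of 2.72 and 2.80 for the A/J arrays and 3.08 and 3.41 for the C57BL/6J arrays, low-fat first, set the mean signal of each array, trimmed by 2% at each end, to 500. Signals under 100 were set to 100, so a ratio with a side at this floor is a bound. Genes whose scaled signals averaged at least 100 were tested. The brightest single-gene probe set stood for a gene.

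Comparisons of 2 arrays were counted at 1.5-fold with no test. Strain and diet effects were fitted over all measured genes with limma 3.58.1 in R 4.3.3 and Benjamini-Hochberg adjustment, and the fit was tested on simulated data. Python 3.11.15, numpy 2.4.6, pandas 2.3.3 and matplotlib 3.10.9 were used otherwise. With 4 arrays in all, their number limits the precision.

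The members and lists were chosen with earlier results of these data known. Named were all genes set apart, members with a called effect or a 1.5-fold ratio, the 5 highest and 5 lowest ratios of each comparison, the 5 largest differences of the diet ratios, members whose probe sets disagree by at least 1 on the log2 scale, members of known role, and up to 4 genes of each other list. Further probe sets of Rpl37a, Rps15 and Rps27l and the probe sets plotted were chosen after their values were seen. The alternatives were other scalings (quantile, none, median), floors of 50 and 200, a pseudocount of 50, the mean of all probe sets, shared probe sets left out, an intensity trend, no filter on the mean, 1 factor only and each array left out.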

Additional observations from a re-analysis of the deposited data

Results flagged for a closer look

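The strains' diet ratios pointed in opposite directions for many ribosomal protein genes. The median difference of the log2 diet ratios (A/J minus C57BL/6J) was 0.24, as it was over 74 mitochondrial ribosomal protein genes. The members with the widest gap and opposite signs were Rps24 at 1.02, Rps25 at 0.94, Rpl37a at 0.82, Rpl27a at -0.81 and Rps15 at 0.75, each in its brightest probe set. The next probe sets of Rps24 gave 0.06, -0.04 and -0.44. Those of Rpl37a gave 0.61 and 0.56, and that of Rps15 0.61. With 1 array a group, these differences were not tested. Signals outside the gene analysis also stood apart on 1 array. The C57BL/6J low-fat array had scaled signals of 11010, 601 and 5012 in the 5', middle and 3' probe sets for 18S ribosomal RNA, above the other 3 arrays in each. Ribosomal probe sets that list several genes, which the comparisons of single genes leave out, had a median low-fat strain log2 ratio of -0.45.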

How the results depend on the processing

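No paired analysis was possible because the labels give no replicate numbers and each group has 1 array. Without scaling between arrays, the median of all measured genes moved to 0.20 and 0.32 in the strain ratios on low-fat and high-fat, to -0.15 in the C57BL/6J diet ratio and to -0.033 in the A/J diet ratio. The ribosomal protein medians were then -0.25 for strain on low-fat, 0.18 for strain on high-fat (9 genes lower, 1 at 1.5-fold higher and 1 lower), -0.25 for diet in C57BL/6J (2 at 1.5-fold lower), -0.033 for the limma strain effect and -0.052 for the limma diet effect. Also without scaling, 4 genes were 1.5-fold lower in A/J on low-fat, and 3 had a diet difference below 0. Relative to all measured genes, the members' low-fat median stayed below in each scaling. Under quantile normalization the high-fat strain median was -0.027 and the limma strain median -0.15. With scaling on the median signal, 14 members were 1.5-fold lower in A/J on low-fat, 4 had a diet difference below 0, and the all-gene low-fat strain median was -0.031. A floor of 200 left 0 members 1.5-fold lower in A/J on high-fat, 0 lower by diet in A/J, 0 with a diet difference that far below 0 and 0 limma strain calls. The mean of all probe sets gave 0, 0 higher and 0 lower, 0 and 0 for the same counts, and 4 members with a diet difference 1.5-fold above 0. Without shared probe sets, 4 had that difference and 0 were 1.5-fold higher by diet in A/J. A pseudocount of 50 gave 1 lower on high-fat and 2 limma strain calls, and an intensity trend gave 4. Members with a mean signal of at least 1000, an alternative chosen after seeing the data, gave 0 at 1.5-fold lower on high-fat, 0 lower by diet in either strain, 0 with a diet difference that far below 0, 3 below 0 by diet in A/J, 4 below 0 in the difference and 0 limma strain calls. With 1 array left out, the limma strain median ran from -0.35 to -0.16, its calls were 0 throughout, and the limma diet median ran from -0.17 to 0.22, with -0.04 without C57BL/6J high-fat. The Rps4l diet effect then ran from -2.15 to 1.27, with 1.14 without A/J high-fat. These fits have 1 factor, so with an array missing a diet effect takes in the strain difference and a strain effect the diet difference. The limma count of all genes called for strain fell to 144 with 1 factor only, and for diet it ran from 0 to 123. Beyond that mixing of strain and diet, the cause of these changes was not tested. Of the other alternatives, 235 values of the comparisons and 178 of single genes or of all genes moved by less than the limits used.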
